A study of Mus musculus with 6 samples.

Results

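The genes described here are 7 of the 22095 in the deposited table: the ryanodine receptors Ryr1, Ryr2 and Ryr3, the inositol trisphosphate (IP3) receptors Itpr1, Itpr2 and Itpr3, and Atp2a2, which encodes the calcium pump SERCA2. They were taken by gene symbol and were chosen by their measured left against right differences and by their levels in 1 library that stands apart. Their side differences are therefore given as a description, and how many of them a fit across all genes called is printed only beside the share of all genes called. RNA was sequenced from olfactory bulbs of ICR mice, an outbred strain. The 3 mice, numbered 1037, 1038 and 1039, had the left naris plugged at postnatal day 30, and 60 days passed before the bulbs were collected. Each mouse gave a left bulb, served by the plugged naris, and a right bulb, served by the open one, with 1 library a bulb. All the mice were plugged, so a difference between the sides that exists without a plug cannot be told apart from one that follows it. The libraries held 14571453 to 15590938 counts, and levels are given as CPM, the count scaled to a common library total.

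Both receptor families are very large channels in the membrane of the endoplasmic reticulum, the calcium store of the cell, and release calcium into the cytoplasm. Ryanodine receptors open on a rise of cytoplasmic calcium, and IP3 receptors need IP3 that phospholipase C makes below surface receptors. SERCA2 pumps the calcium back into the store. In the olfactory bulb, release from stores takes part in the calcium signals of mitral cell and granule cell dendrites.

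The library labelled left 1038 goes against its label and is shown apart. Markers of cerebellar granule cells, 4 of 4 higher than in every other library, summed to 4150 CPM in it, against 62.8 to 78.0 CPM in the other 5 libraries, and markers of Purkinje cells, likewise 6 of 6, to 2529 CPM, against 42.1 to 56.6 CPM. Markers of bulb projection neurons summed to 612 CPM in it and to 1561 to 1821 CPM in the others. The comparison of sides therefore rests on 5 libraries, 2 left (mice 1037 and 1039) and 3 right, and the values with all 6 stand beside it.

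In these 5 libraries Ryr1, Ryr2 and Atp2a2 were lower in left than in right bulbs, with no overlap between the sides, while Ryr3 and the IP3 receptors other than Itpr1 overlapped. Itpr1 stood slightly above in both left libraries in CPM, a position that 33.2% of all tested genes shared, and its fitted difference was close to 0. In the fit across all 14412 genes, 3 of the 7 genes were called at an adjusted p under 0.05 by edgeR's quasi-likelihood test, all lower on the left, where 9.62% of all genes were called, 6.46% lower and 3.16% higher. The median log2 fold change (left over right) was -0.16 for the 7 genes and 0.005 for all genes tested. Both left libraries lay below all right ones in 3 of the 7 genes and in 13.2% of all genes, and the sides did not overlap in either direction in 46.4% of all genes. Nothing is read from these counts, since the genes were chosen with this contrast known. In bulk tissue, fewer cells of a type and less RNA per cell cannot be told apart.

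**Figure D1:**
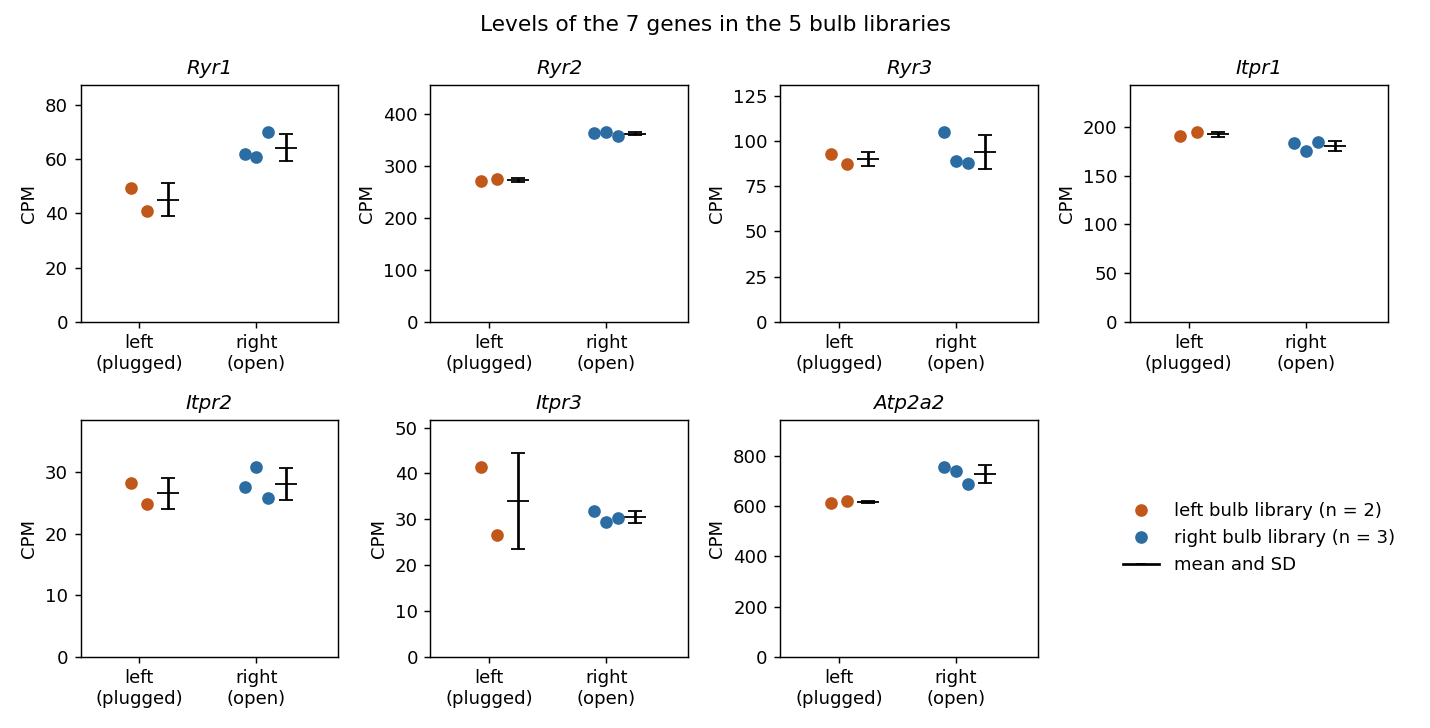
CPM (vertical axis, from 0) of each of the 7 genes in the left bulb libraries of mice 1037 and 1039 and in the right bulb libraries of mice 1037, 1038 and 1039, with the mean and SD beside the points. Ryr1, Ryr2 and Atp2a2 lie lower in both left libraries than in every right library, and Itpr3 is spread widely on the left, at 41.4 and 26.5 CPM.

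Ryr2, the ryanodine receptor known from heart muscle and from neurons (ENSMUSG00000021313, chromosome 13, 11553102 to 12106945 on GRCm38, minus strand), stood at 270.2 and 275 CPM in left 1037 and 1039, against 363, 364.6 and 358 CPM in right 1037, 1038 and 1039. The left libraries were close to each other, as were the right ones. The gap between the sides was wider than the spread within them, in a gene chosen with this contrast known. The means were 273 ± 3.33 CPM in left bulbs (SD, n = 2) and 362 ± 3.30 CPM in right bulbs (SD, n = 3), and the fitted log2 fold change was -0.49 (SE 0.05), a level 28.9% lower on the left. Here and below, such percents carry the fit's scaling for library composition, which the CPM means do not. Scaled by total library size, the log2 fold change of Ryr2 was -0.41. Within a mouse, on the scaled log2 scale of the fit, the left minus right difference was -0.52 in mouse 1037 and -0.46 in mouse 1039.

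Ryr1, the ryanodine receptor of skeletal muscle that Purkinje cells and other neurons also express (ENSMUSG00000030592, chromosome 7, 29003344 to 29125179, minus strand), was less abundant. It stood at 49.4 and 40.8 CPM in left 1037 and 1039, against 62.1, 61.0 and 69.97 CPM in right 1037, 1038 and 1039. All left values were below all right values, with more spread than for Ryr2. The means were 45.1 ± 6.09 CPM in left bulbs (SD, n = 2) and 64.4 ± 4.89 CPM in right bulbs (SD, n = 3), with a log2 fold change of -0.60 (SE 0.10), a level 33.8% lower on the left. The within-mouse difference was -0.42 in mouse 1037 and -0.86 in mouse 1039. The log2 fold change was -0.51 when scaled by total library size. Skeletal muscle markers were near 0: the 10 listed genes, none of them at 0 in all 5 libraries, summed to 6.37 and 6.41 CPM in left bulbs and to 5.39 to 7.30 CPM in right bulbs, and of the 3 tested 0 passed by edgeR, DESeq2 or limma-voom, with 1 at an unadjusted p under 0.05.

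Ryr3, the third ryanodine receptor, found in brain (ENSMUSG00000057378, chromosome 2, 112631355 to 113217096, minus strand), stood at 93.0 and 87.5 CPM in left 1037 and 1039, against 104.8, 88.8 and 87.9 CPM in right 1037, 1038 and 1039. The sides overlapped, and right 1037 was the high library. The log2 fold change was -0.14 (SE 0.09) and became -0.04 without right 1037, -0.08 without left 1039 and -0.06 when scaled by total library size. Ryr3 shares 916 exonic bases with Aven, a gene on the opposite strand at 5.96 to 7.19 CPM, and the sources used here do not say whether counting used the strand. Ryr1 shares 864 exonic bases with Gm26604, an antisense gene without counts of its own here. Itpr1, Itpr3 and Atp2a2 also share exonic bases with opposite-strand genes that have no counts here, up to 233 in Itpr3.

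**Figure D2:**
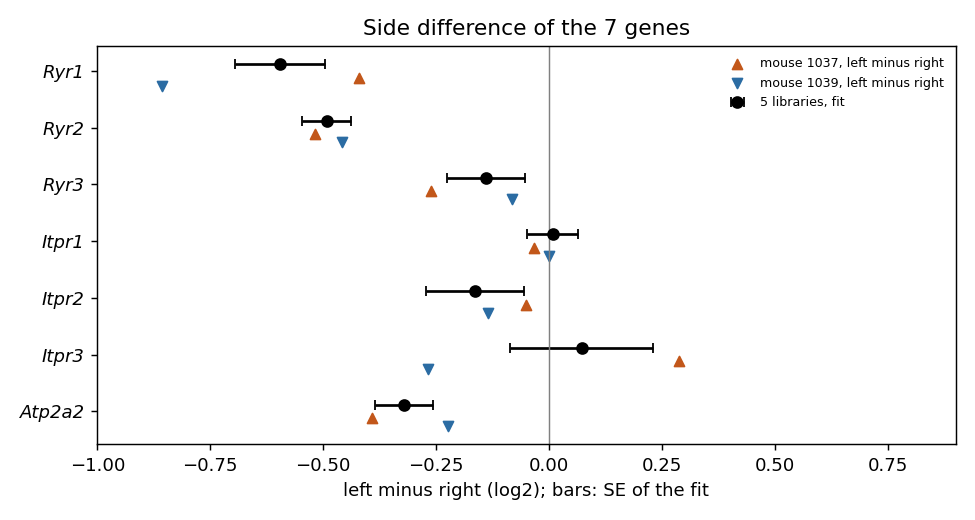
Left minus right difference on the log2 scale (horizontal axis) for each of the 7 genes. Black points with SE bars are the fit to the 5 libraries, and triangles are the differences within mouse 1037 and within mouse 1039 on the same scaling. Ryr1, Ryr2 and Atp2a2 are below 0 in the fit and in both mice, and Itpr3 is at 0.29 in mouse 1037 and at -0.27 in mouse 1039.

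Promoter sequence was available for 4 of the 7 genes. The windows of Ryr1 and Ryr2 are printed because both channel genes were lower on the left. Each is the 250 bases before the RefSeq start on GRCm38.p6, on the gene's own strand, 5′ to 3′. Capitals mark the GC box GGGCGG, searched on both strands.
Ryr1, chr7:29125152-29125401, minus strand: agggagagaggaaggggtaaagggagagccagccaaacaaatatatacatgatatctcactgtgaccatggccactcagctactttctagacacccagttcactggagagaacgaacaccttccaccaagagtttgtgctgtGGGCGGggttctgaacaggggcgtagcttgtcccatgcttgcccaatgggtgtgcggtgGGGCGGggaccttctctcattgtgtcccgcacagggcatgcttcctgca
Ryr2, chr13:12106946-12107195, minus strand: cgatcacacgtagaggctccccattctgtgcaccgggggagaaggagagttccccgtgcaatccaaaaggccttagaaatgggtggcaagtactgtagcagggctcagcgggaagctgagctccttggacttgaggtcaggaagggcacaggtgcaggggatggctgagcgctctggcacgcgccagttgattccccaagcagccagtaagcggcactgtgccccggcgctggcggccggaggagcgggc

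The Ryr1 window held 2 GC boxes, starting 108 and 49 bases before the start, and the Ryr2 window held none, where 32.7% of the 32851 RefSeq windows of this length held at least 1. Their GC content was 54.8% for Ryr1 and 63.2% for Ryr2, and the median over all windows was 52.4%. The short CRE site TGACG and the AP-1 site TGANTCA, both known from activity-regulated genes, were in neither window, nor in those of Itpr2 and Itpr3. They were in 17.8% and 6.75% of all windows. The Egr site GCGNGGGCG, present in 4.70% of all windows, was found in the Itpr3 window alone of the 4, 70 bases before the start, where it overlaps a GC box. These matches are letters in a window, and binding was not measured.

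Among the IP3 receptors, Itpr1, the main form of brain neurons (ENSMUSG00000030102, chromosome 6, 108213096 to 108551109, plus strand), stood at 190.4 and 194 CPM in left 1037 and 1039, against 183, 175 and 184 CPM in right 1037, 1038 and 1039. The left values were a little above the right ones in CPM. After scaling for library composition the log2 fold change was 0.01 (SE 0.06), with a sign that changed between settings. It was 0.09 when scaled by total library size.

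Itpr2, the form known from astrocytes among brain cells (ENSMUSG00000030287, chromosome 6, 146108299 to 146502223, minus strand), stood at 28.3 and 24.8 CPM in left 1037 and 1039, against 27.6, 30.9 and 25.9 CPM in right 1037, 1038 and 1039. The sides overlapped, with a log2 fold change of -0.16 (SE 0.11) that lay between -0.26, without left 1037, and -0.06, without left 1039. The 5 astrocyte markers, none of them at 0, summed to 2094 and 2117 CPM in left bulbs and to 1558 to 1735 CPM in right bulbs, and 2 of them rose. These were Gfap, with a log2 fold change of 1.05, and Aqp4, with 0.30. Of all genes tested, 3.16% were called higher on the left. Gja1, Slc1a3 and Aldh1l1 had 0.14, -0.02 and -0.23 and did not pass, so the list did not move as a whole. The part of the astrocyte markers in the value of Itpr2 was not tested.

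Itpr3, a form known best from epithelial and taste cells (ENSMUSG00000042644, chromosome 17, 27057304 to 27122223, plus strand), stood at 41.4 and 26.5 CPM in left 1037 and 1039, against 31.9, 29.4 and 30.2 CPM in right 1037, 1038 and 1039. The right bulbs lay between the left ones, so the left libraries were the highest and the lowest of the 5. The log2 fold change of 0.07 (SE 0.16) was 0.37 without left 1039 and -0.28 without left 1037.

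Atp2a2 (ENSMUSG00000029467, chromosome 5, 122453513 to 122502225, minus strand) was the most abundant of the 7 genes. It stood at 614 and 620.4 CPM in left 1037 and 1039, against 757, 739.6 and 687 CPM in right 1037, 1038 and 1039. Both left values were below every right value, and right 1039 lay closest to them. The means were 617 ± 4.74 CPM in left bulbs (SD, n = 2) and 728 ± 36.2 CPM in right bulbs (SD, n = 3), with a log2 fold change of -0.32 (SE 0.06), a level 19.9% lower on the left. The within-mouse difference was -0.39 in mouse 1037 and -0.22 in mouse 1039. The log2 fold change was -0.28 without right 1037 and -0.31 without right 1038, and Atp2a2 was not among the genes called in either case. With the 5 libraries scaled by total library size it was -0.24.

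With all 6 libraries edgeR called 0 of 14209 genes (0% of those tested), with 1196 at an unadjusted p under 0.05, and DESeq2 called 194. There the log2 fold change of Ryr2 was -0.49 (SE 0.07), that of Ryr1 was -0.12 (SE 0.34) and that of Atp2a2 was 0.10 (SE 0.30), so the sign of Atp2a2 turned with the library labelled left 1038. Itpr1 had 2.66 (SE 1.21) and Ryr3 -0.58 (SE 0.57).

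Summed over the family, ryanodine receptor RNA came to 413 and 403 CPM in left bulbs and to 530.3, 514 and 516 CPM in right 1037, 1038 and 1039. IP3 receptor RNA came to 260.1 and 246 CPM in left bulbs and to 243, 235 and 240.4 CPM in the right ones. The sides did not overlap for the sum of either family, lower on the left for ryanodine receptors and higher for IP3 receptors. With the scaling of the fit the IP3 receptor sums overlapped, at 252 and 237 in left bulbs and 249.8, 240.2 and 245 in right 1037, 1038 and 1039. The ryanodine receptor sums stayed apart, at 399 and 389 in left bulbs and 546, 525 and 525 in the right ones. Mean CPM in left and right bulbs was 273 and 362 for Ryr2, 45.1 and 64.4 for Ryr1, and 90.3 and 93.8 for Ryr3, which overlapped. The sum holds Ryr1 and Ryr2, chosen with this contrast known, so it is no separate result.

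Levels of different genes were compared per kilobase of exon, from the annotated exons of each gene merged. Per exonic kilobase, Atp2a2 stood at 101 ± 0.779 CPM in left bulbs (SD, n = 2) and 119.7 ± 5.95 CPM in right bulbs (SD, n = 3), far above the channels. Ryr2 stood at 9.47 ± 0.116 CPM per kilobase in left bulbs and 12.6 ± 0.115 CPM per kilobase in right bulbs, and Itpr1 at 10.5 ± 0.152 in left bulbs and 9.87 ± 0.281 in right bulbs. By this measure Itpr1 stood above Ryr2 in left bulbs and Ryr2 above Itpr1 in right bulbs, each by more than the SD. The order held with the length of the longest transcript, at 19.5 CPM per kilobase for Itpr1 and 16.2 for Ryr2 in left bulbs and at 18.3 for Itpr1 and 21.5 for Ryr2 in right bulbs. The SD covers the spread of libraries and not the choice of length. In CPM, without a length, Ryr2 stood above Itpr1 on both sides, at 273 against 192 in left bulbs and 362 against 181 in right bulbs. Ryr2 was also chosen with its side difference known.

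Lower in the order came Ryr3, at 4.76 ± 0.207 CPM per kilobase in left bulbs and 4.94 ± 0.501 in right bulbs. Itpr3 followed with 3.76 ± 1.17 in left bulbs and 3.38 ± 0.139 in right bulbs. In left bulbs its mean did not differ from that of Ryr3 beyond the spread. It was below Ryr3 in each left library, at 4.59 against 4.90 in left 1037 and 2.94 against 4.61 in left 1039. Ryr1 had 2.06 ± 0.279 in left bulbs and 2.95 ± 0.224 in right bulbs, and Itpr2 was lowest with 1.79 ± 0.167 in left bulbs and 1.899 ± 0.172 in right bulbs. Across left bulbs the values of Ryr1 and Itpr2 overlapped, but Ryr1 was above Itpr2 in each. The values were 2.26 against 1.91 in left 1037 and 1.87 against 1.68 in left 1039. With the longest transcript they did not overlap, at 3.21 and 2.65 for Ryr1 and 2.42 and 2.13 for Itpr2. In right bulbs the order of Ryr1 and Itpr3 turned when the longest transcript was used, with Ryr1 at 4.19 and Itpr3 at 3.39 CPM per kilobase.

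**Figure D3:**
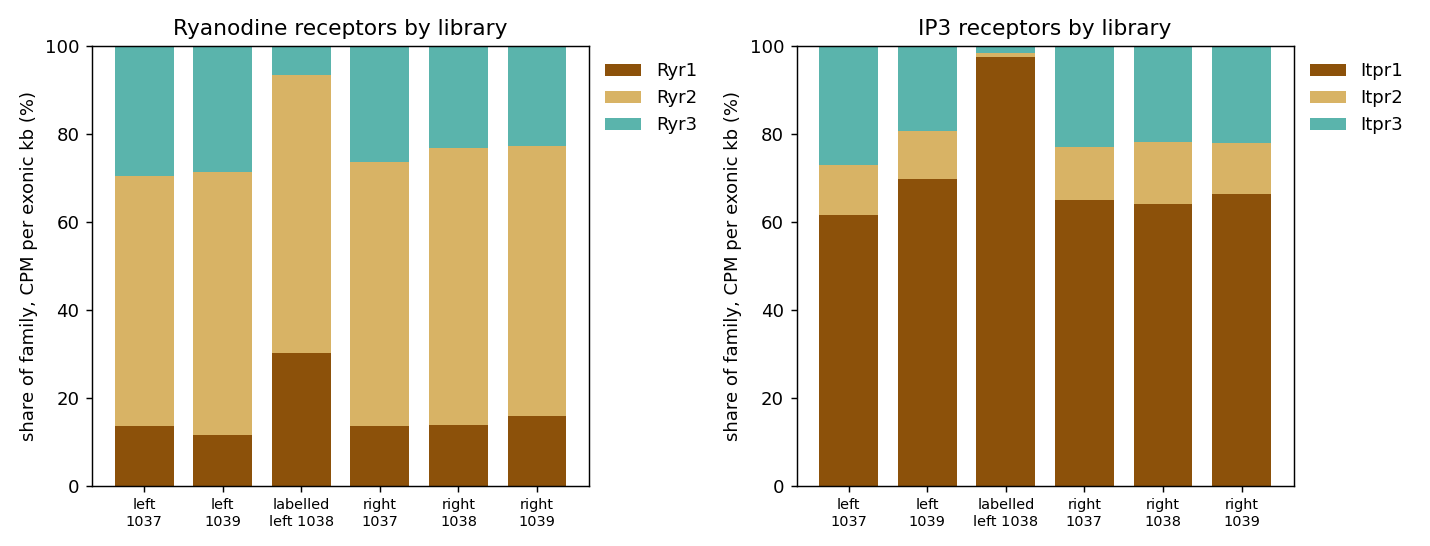
Share of each member in its family (vertical axis, percent of the summed CPM per exonic kilobase) in each of the 6 libraries, with ryanodine receptors on one side and IP3 receptors on the other. Ryr2 makes up the largest share of its family in every library, and Itpr1 makes up 97.5% of its family in the library labelled left 1038.

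These shares do not depend on the scaling of libraries. Ryr2 made up 58.2 ± 2.03% of ryanodine receptor RNA per exonic kilobase in left bulbs (SD, n = 2) and 61.5 ± 1.37% in right bulbs (SD, n = 3). Ryr1 made up 12.7 ± 1.42% in left bulbs and 14.4 ± 1.22% in right bulbs. The share of Ryr3 was 29.6% and 28.8% in left 1037 and 1039, against 26.3%, 23.2% and 22.8% in right 1037, 1038 and 1039, and did not overlap between the sides. With the longest transcript as length it was 23.8% and 22.9% in left bulbs, against 20.9%, 18.3% and 18.002% in the right ones. The family total holds Ryr1 and Ryr2, both lower on the left, so a higher share of Ryr3 there needs no higher level of Ryr3. The level of Ryr3 itself overlapped between the sides. Itpr1 made up 65.6 ± 5.78% of IP3 receptor RNA in left bulbs and 65.1 ± 1.15% in right bulbs, a difference within the spread.

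The 7 genes differ in size. From start to end, introns included, 5 of them span over 100 kb, with 585742 bases for Ryr3 and 553844 bases for Ryr2, while Itpr3 spans 64920 and Atp2a2 48713 bases. Ryr1, Ryr2 and Ryr3 have 109, 107 and 107 merged exons, and Atp2a2 has 21. Of the 2234 tested genes whose deposited length was over 100 kb, 13.1% were called lower and 3.36% higher on the left. Of the 12178 shorter genes these were 5.25% and 3.13%, and the median log2 fold change was -0.05 for long and 0.01 for shorter genes. The part of gene length in the values of Ryr1 and Ryr2 was not tested.

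Among the other genes of store calcium signalling, 88 were listed by role, 87 were in the table and 81 had enough counts to be tested. Of these 15 fell and 2 rose on the left (21.0% called, against 9.62% of all genes tested), and the median log2 fold change was -0.01. Scaled by total library size, 10 fell and 6 rose, with 12 of the 17 calls shared. The calls were 8 without right 1037, 9 without right 1038 and 11 without left 1037. All adjusted p-values that follow are from edgeR's quasi-likelihood test over all genes.

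**Figure D4:**
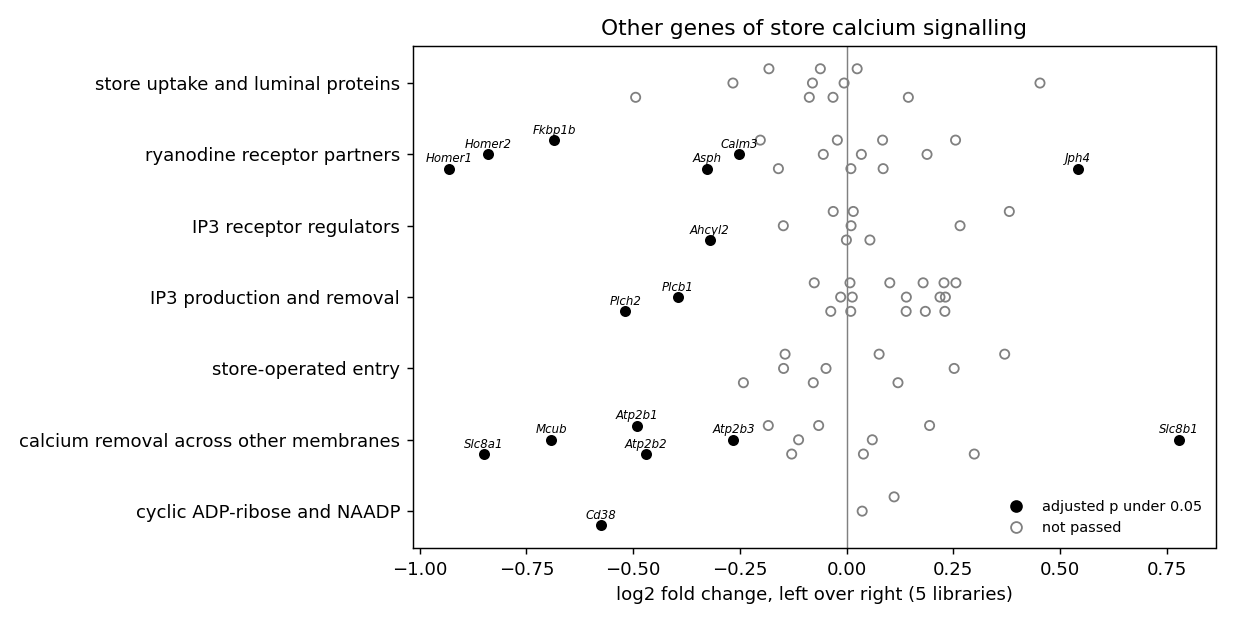
Log2 fold change, left over right, in the 5 bulb libraries (horizontal axis) for 80 of the 81 tested genes of the 7 lists of store calcium signalling (rows). Filled points, with names, passed at an adjusted p under 0.05. Most named genes lie to the left of 0 and 2 of them, Jph4 and Slc8b1, to the right.

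The partners of ryanodine receptors held 5 genes that fell and 1 that rose among 16 tested (median -0.04). The share called was 37.5%, against 9.62% of all genes tested. Homer1 and Homer2 encode scaffolds that tie metabotropic glutamate receptors at the synapse to IP3 and ryanodine receptors. Homer2 stood at 133 and 140.2 CPM in left 1037 and 1039, against 238, 246 and 209 CPM in right 1037, 1038 and 1039, and fell by 0.84 on the log2 scale (SE 0.08, adjusted p = 0.000606). Homer1 stood at 125 and 121 CPM in left bulbs, against 286, 195 and 183 CPM in the right ones, and fell by 0.93 (SE 0.17, adjusted p = 0.00837). Both sides were well separated for each Homer gene, with right 1037 high for Homer1. The counts are per gene and do not tell the transcript forms of a Homer gene apart. Fkbp1b, an FK506-binding protein that binds Ryr2 in the heart, was a gene of low level, with 12.9 and 13.3 CPM in left bulbs, against 20.4, 21.1 and 18.3 CPM in the right ones. It fell by 0.69 (SE 0.12, adjusted p = 0.00690).

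Jph4, a neuronal junctophilin that holds the store close to the surface membrane, rose by 0.54 (SE 0.10, adjusted p = 0.00967), with 219 and 257 CPM in left bulbs, against 152, 136 and 175 CPM in the right ones. Asph, whose locus also encodes junctin, a partner of ryanodine receptors, fell by 0.33 (SE 0.07, adjusted p = 0.0179). Asph shares 2302 exonic bases with Clvs1 on the opposite strand, which had -0.41 and stood at 71.4 to 97.3 CPM. Homer2 shares 525 exonic bases with Gm44570, also on the opposite strand and without counts of its own here. Calm3, one of the calmodulin genes, fell by 0.25 (SE 0.06, adjusted p = 0.0379).

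Genes that carry calcium out of the cytoplasm by other routes held 6 that fell and 1 that rose among 15 tested (median -0.13). The share called was 46.7%, against 9.62% of all genes tested. Slc8a1, a sodium-calcium exchanger of the surface membrane, stood at 51.7 and 53.0 CPM in left bulbs, against 90.5, 96.8 and 79.9 CPM in the right ones. It fell by 0.85 (SE 0.09, adjusted p = 0.000919). Atp2b1, Atp2b2 and Atp2b3 encode calcium pumps of the surface membrane. Atp2b1 stood at 640.2 and 711 CPM in left bulbs, against 915, 918 and 857 CPM in the right ones, and fell by 0.49 (SE 0.07, adjusted p = 0.00290). Atp2b2 fell by 0.47 (SE 0.07, adjusted p = 0.00455), and Atp2b3 fell by 0.26 (SE 0.07, adjusted p = 0.0422, and adjusted p = 0.0525 with the mouse as a block). The other listed pump and exchangers of the surface membrane were not called and differed in sign. Atp2b4 had 0.19 (adjusted p = 0.329) and Slc8a3 -0.18 (adjusted p = 0.201). Slc8a2 had 0.30 (adjusted p = 0.0738, and adjusted p = 0.0438 with the mouse as a block).

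Of the mitochondrial genes in this list, Mcub, an inhibitory relative of the calcium uniporter's pore, fell by 0.69 (SE 0.15, adjusted p = 0.0195). Slc8b1, the sodium-calcium exchanger of mitochondria, rose by 0.78 (SE 0.18, adjusted p = 0.0280), with 9.33 and 8.89 CPM in left bulbs, against 4.23, 4.90 and 5.94 CPM in the right ones.

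Of 18 genes that make or remove IP3, 2 fell and 0 rose (median 0.12), and the 11.1% called lay close to the 9.62% of all genes. Plch2, a phospholipase C of neurons, stood at 109 and 114 CPM in left bulbs, against 154, 155 and 145 CPM in the right ones, and fell by 0.52 (SE 0.06, adjusted p = 0.00142). Plcb1, the phospholipase C that Gq-coupled receptors activate, fell by 0.39 (SE 0.10, adjusted p = 0.0343). Among 9 tested regulators of IP3 receptors, likewise with 11.1% called (median 0.01), Ahcyl2, a relative of the IP3 receptor binding protein IRBIT, fell by 0.32 (SE 0.09, adjusted p = 0.0454). The 3 tested genes of cyclic ADP-ribose and NAADP signalling had a median of 0.04, with 33.3% called. Among them Cd38, which makes the ryanodine receptor messenger cyclic ADP-ribose, fell by 0.58 (SE 0.16, adjusted p = 0.0485, and adjusted p = 0.0785 with the mouse as a block). The call of Cd38 also ended with RLE factors (adjusted p = 0.0503), total library size (0.0747), DESeq2 (0.0842) and limma-voom (0.0579).

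No gene passed among 11 proteins of store uptake and lumen (median -0.06) or among 9 of store-operated entry (median -0.05). In the first list 0 and in the second 1 had an unadjusted p under 0.05 in edgeR, and DESeq2 and limma-voom called 0 in both. The smallest p in the first list belonged to Tmem38a, a potassium channel of the store membrane, with 0.14 (adjusted p = 0.204), and to Casq2, a calsequestrin, with -0.49 (adjusted p = 0.389; -0.30 without left 1039). In the second, Orai3, a calcium entry channel, had 0.37 (adjusted p = 0.146), and Stim1, the store's calcium sensor, had -0.14 (adjusted p = 0.289), with -0.22 without left 1037, -0.09 without right 1037 and -0.06 without left 1039. Of the 17 calls, 8 held in every alternative with the 5 libraries, which are those of Homer1, Homer2, Fkbp1b, Jph4, Slc8a1, Atp2b1, Atp2b2 and Plch2.

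The other 9 ended when single libraries were left out, and some of them also under other settings. Calm3 (without any but left 1039, adjusted p up to 0.145), Asph (right 1037, right 1038 or left 1039 left out, adjusted p at most 0.114) and Slc8b1 and Mcub (any but right 1039 left out, adjusted p at most 0.0911 and 0.0770) were among them. So were Atp2b3 and Cd38 (Atp2b3 without any of the 5 and Cd38 without any but right 1039, up to 0.164 each). Ahcyl2 had -0.49 without left 1037 and -0.16 without left 1039, and its call ended without any library but left 1037 (adjusted p up to 0.226). Plcb1 had -0.24 without left 1037, and its call ended there and without either of right 1037 and right 1039 (at most 0.153, adjusted p). Scaling by total library size also ended the calls of Calm3 (adjusted p = 0.119), Ahcyl2 (0.103), Plcb1 (0.0689) and Atp2b3 (0.120). That of Atp2b3 ended with no filter (adjusted p = 0.0540) and in DESeq2 (0.0783) too, and that of Ahcyl2 with a filter of 1 CPM in 2 libraries (0.0511).

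Of the cell type marker lists, that of sensory axons fell on the left in all of its genes (4 of 4), and others did so in part or not at all. Of all genes tested, 6.46% were called lower and 3.16% higher on the left. Sensory axon markers summed to 20.4 and 71.2 CPM in left bulbs and to 247 to 314 CPM in right bulbs. Bulb projection neurons (5 markers, 1 up and 1 down) summed to 1561 and 1821 CPM in left bulbs and to 1651 to 1812 CPM in right bulbs, and interneurons (7 markers, 1 up and 2 down) to 1117 and 1168 CPM and to 1102 to 1242 CPM. Microglia markers, of which 0 of 5 passed by edgeR, DESeq2 or limma-voom and 3 had an unadjusted p under 0.05, summed to 173 and 186 CPM in left bulbs and to 143 to 148 CPM in right bulbs. Cardiac muscle markers, with 1 of 4 tested lower and 0 higher, summed to 11.6 and 7.70 CPM in left bulbs and to 10.8 to 14.9 CPM in right bulbs. Endothelial markers, with 1 of 5 lower and 0 higher, summed to 168 and 178 CPM in left bulbs and to 175 to 199.9 CPM in right bulbs. No listed marker of these cell types was at 0 in all 5 libraries. The part of these markers in the values of Ryr1, Ryr2 and Atp2a2 was not tested.

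Genes with a like pattern over the 5 libraries were taken by the smallest root mean square difference in centred log2 CPM, among genes with a similar SD. Closest to Ryr2 were Lrrc4 (a difference of 0.0121) and Wdr1 (0.0187), with 45.02 and 176 CPM in left bulbs, against 60.8 and 231 CPM in right bulbs. Close to Ryr1 was Mfap3l (0.0549), and closest to Atp2a2 were Nrcam (0.0158) and Ccdc85c (0.0167). The others were Ccdc93 and Ccnh for Ryr3, Creld1 and Tubgcp3 for Itpr1, Uqcr10 and Atp5d for Itpr2, and Ddr2 and Emb for Itpr3. With 5 libraries and 1137 to 3273 candidate genes for each, close matches are many.

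The library labelled left 1038 differed most from the other 5 in Itpr1 and Ryr3. It is 1 library of its kind, so its values are given with exact Poisson intervals (95%), which cover counting error only, and without a test. Itpr1 stood at 3033 CPM (3004 to 3061 CPM) in it, against 175 to 194 CPM in the others, 16.5 times their median. Ryr3 stood at 17.6 CPM (15.5 to 19.9 CPM), against 87.5 to 104.8 CPM in the others. Atp2a2, at 1161 CPM (1144 to 1179 CPM), and Ryr1, at 91.5 CPM (86.7 to 96.6 CPM), lay above all of the other libraries, which reached 757 CPM for Atp2a2 and 69.97 CPM for Ryr1.

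Ryr2 stood at 253 CPM (245 to 262 CPM) in this library, below the 270.2 to 364.6 CPM of the others. Itpr2, at 23.5 CPM, and Itpr3, at 24.1 CPM, lay near the low end of the other libraries. Among ryanodine receptors per exonic kilobase, Ryr1 made up 30.1% and Ryr3 6.65% of the total in this library, against 11.6% to 15.8% for Ryr1 and 22.8% to 29.6% for Ryr3 in the others. Itpr1 and Ryr1 are known as genes of Purkinje cells, whose markers are given above. The part of the Purkinje cell and granule cell markers in these levels was not tested.

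**Figure D5:**
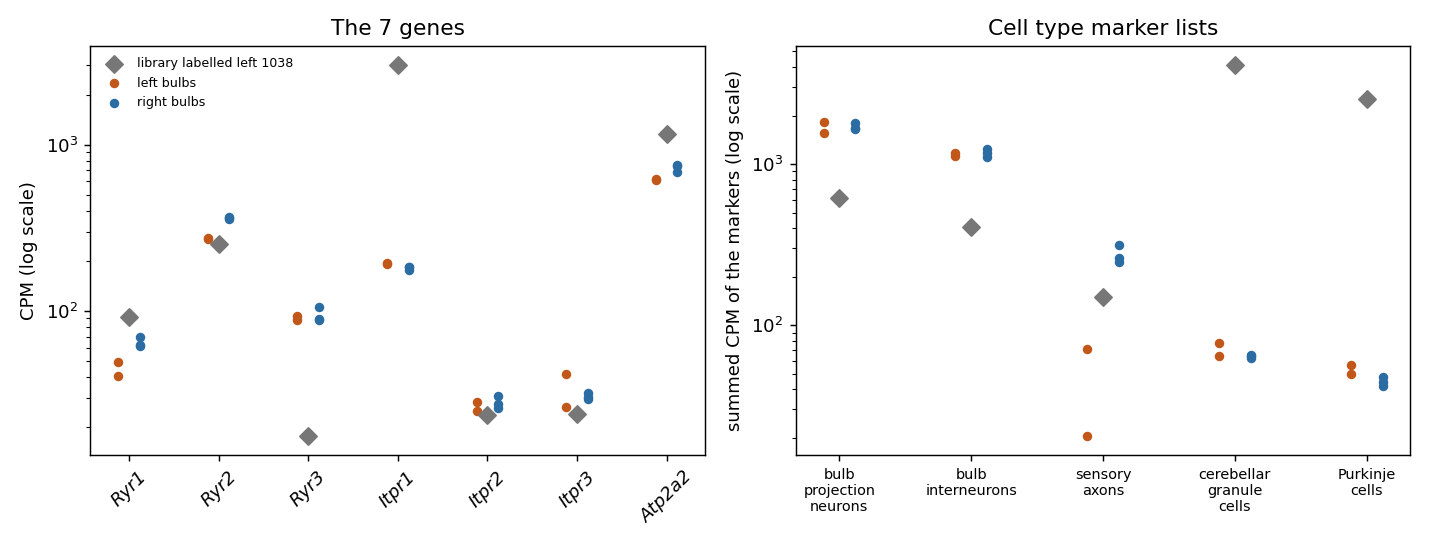
CPM on a log axis for the 7 genes (one panel) and the summed CPM of marker lists of 5 cell types, also on a log axis (other panel), in the library labelled left 1038 (grey diamonds), the left bulbs of mice 1037 and 1039 and the right bulbs of the 3 mice. Itpr1 and both cerebellar marker lists lie far above the other libraries, and Ryr3 and the bulb neuron markers lie below them.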

How the data were processed

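Per the file headers, the values used are raw, whole-number read counts of each gene in each library. The authors also deposited an RPKM value per gene, per the file headers, which recomputed counts and deposited lengths matched within 3.82e-11. For 78.3% of genes that length equals the span from start to end, introns included, to within 1 base, so RPKM was not used. The submitters' processing notes name the build GRCm38 and, with no role or order, HTSeq 0.6.1p2, TopHat2, DESeq 1.18.0 and cutadapt 1.2.1. Symbols were matched by Ensembl ID for 21852 of 22095 genes. The 7 genes, the lists and the tests were chosen with earlier results of these data known.

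Sides were compared with edgeR 4.0.16 (glmQLFit and glmQLFTest, TMM scaling, filterByExpr, side as the only term) in R 4.3.3, with Benjamini-Hochberg adjustment over all genes tested. The SE is the absolute log2 fold change divided by the square root of F. All p-values are two-sided. The 7 genes, the called genes of the pathway lists and, in lists with none, the 2 genes of smallest p were named. Of the 88 listed genes Itprip was not matched to a row. For likeness, 2 genes each were named, of a mean of at least 5 CPM and an SD within 1.25 times that of the gene, on log2(CPM + 0.5). Clvs1, Aven, Gm26604 and Gm44570 were named for their overlap. Atp2b4, Slc8a2 and Slc8a3 were named as the other listed pump and exchangers of the surface membrane. One called pathway gene, counted in its list, and one gene of like pattern are not reported here.

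Both bulbs of a mouse share its number, so libraries are paired by design. The deviations of left and right libraries of mice 1037 and 1039 correlated at 0.271 across genes, a value both mice share by construction. The main fit has no block and treats the bulbs of a mouse as independent, and the mouse as a block was an alternative, beside RLE factors, total library size, no filter, 1 CPM in 2 libraries, DESeq2 1.42.0, limma-voom (limma 3.58.1), leave-outs, 6 libraries and mice 1037 and 1039 alone. Libraries held 14571453 to 15590938 counts, and a gene with 0 counts could reach 0.192 to 0.206 CPM (3 counts). All columns belong to these samples, and 0 library pairs held the same values. Leaving out the library labelled left 1038 is not independent of earlier results. Exonic lengths and coordinates are those of GENCODE on GRCm38.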

Additional observations from a re-analysis of the deposited data

Results flagged for a closer look

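In the library labelled left 1038, which the comparison of sides does not use, 3 of the 7 genes stood above every right bulb by more than counting error. The share of all genes that did so was not computed. The 7 genes were chosen partly by their levels in this library, so nothing is read from this count. Itpr1 stood at 3033 CPM, against 175 to 184 CPM in right bulbs. Atp2a2 stood at 1161 CPM, against 687 to 757 CPM in right bulbs. Ryr1 stood at 91.5 CPM, against 61.0 to 69.97 CPM in right bulbs.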

How the results depend on the processing

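Of the 5-library comparison, RLE factors, no filter, 1 CPM in 2 libraries, DESeq2, limma-voom and total library size kept the counts of called genes within 1.5 times of 1387. Scaled by total library size only, 975 were higher and 589 lower, against 456 and 931 with TMM scaling. With the mouse as a replicate block 1553 genes were called, with 3 of the 7 genes. Among the 7 genes and the named pathway genes the block ended the calls of Atp2b3 and Cd38 alone. Right 1038 has no left partner in that fit, so its side difference comes from mice 1037 and 1039 alone, few pairs for a paired check. Leaving out each library gave 660 to 1096 called genes, 2 to 3 of the 7 genes and 8 to 13 pathway genes. Mice 1037 and 1039 alone gave 660 genes, 2 of the 7 and 9 pathway genes, the same libraries as without right 1038. All 6 libraries gave 0 genes, 0 of the 7 and 0 pathway genes by edgeR, 0 genes with the block and 194 by DESeq2.

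Signs turned with all 6 libraries for Atp2a2 (0.10), Itpr3 (-0.046), Asph (0.28), Plch2 (0.60), Atp2b3 (0.77) and Casq2 (2.15). Itpr1 had -0.016 with the block, -0.013 to 0.029 without single libraries and -0.013 without right 1038 and in mice 1037 and 1039 alone, and Itpr3 had -0.28 to 0.37 without single libraries.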

Other observations

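In the library labelled left 1038, 8 of the other listed genes of store calcium signalling stood over 4-fold above the median of the other 5 libraries at 20 CPM or more, and 3 stood over 4-fold below it. Atp2a3, which encodes the pump SERCA3, had 213 CPM there, where the other 5 had 5.38 to 9.27 CPM. Homer3, a scaffold, had 279.8 CPM, where they had 14.2 to 20.7 CPM, and Inpp5a, an enzyme that removes IP3, had 393 CPM, where they had 89.7 to 96.3 CPM. Homer2 was at 12.4 CPM, against 133 to 246 CPM, Slc8a1 at 15.5 CPM, against 51.7 to 96.8 CPM, and Plcb1 at 49.5 CPM, against 176 to 266 CPM. These are values of 1 library and were chosen after they were seen. The share of all genes that pass the same limits was not computed, so nothing is read from the counts.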
